A study of Mus musculus with 16 samples.

Results

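The serpin genes encode a large family of serine protease inhibitors, and their promoters were followed through the day in mouse liver by Promoter Capture Hi-C (P-CHi-C). This assay crosslinks chromatin, cuts it with HindIII, ligates neighbouring ends and captures the products that carry a promoter fragment, called a bait. The promoters were chosen by position and name: bait fragments that hold the start of an autosomal protein-coding gene whose symbol begins with Serpin in the GENCODE annotation of mm9, with Serpinc1, Serpind1 and Serpinf2 left out. Of 56 such genes, 32 had their start on a bait, and because Serpina5 and Serpina3a share a fragment these were 31 fragments of the 18165 baits in the data. They had an end in 545 of 247177 listed fragment pairs.

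The livers came from wild type male C57BL/6 mice. At 8 weeks of age the mice were kept for 2 weeks under a cycle of 12 h light and 12 h dark with free access to food. Livers were taken at zeitgeber time (ZT, hours after lights on) ZT0, ZT6, ZT12 and ZT18. For each timepoint 3 pools of 2 livers were made, with pool A on 2 lanes, so that the 16 samples made 4 groups that differ by time alone. The authors merged the pools before they called contacts, and each timepoint is therefore 1 list of fragment pairs, each pair with a CHiCAGO score of at least 5. The score sets the reads of a pair against those expected from distance and noise. A pair that is not in a list was below the minimum score, which is no measurement of few reads. The lists give no replicate spread, so differences between timepoints were described and not tested. Sets of 4 values follow the order ZT0, ZT6, ZT12, ZT18. RNA was not analysed here, so the tissue label could not be set against marker genes.

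Most serpins trap a protease by offering a reactive loop to its active site, after which both proteins stay locked together. Hepatocytes secrete many of the clade A serpins into plasma, where they restrain proteases of neutrophils, clotting and inflammation, while clade B serpins act mainly inside cells. A few family members inhibit no protease and carry hormones or fold collagen. In the mouse, clades A and B have expanded into long tandem arrays of related genes.

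Clade A had 22 genes, all in a cluster of 775 kb on chromosome 12 that runs from Serpina10 to Serpina3n, and 16 of them had a bait, on 15 fragments. Clade B had 26 genes. Of these, 15 lay in a cluster of 1150 kb on chromosome 13, with 8 bait fragments, and 11 lay in a cluster of 729 kb on chromosome 1, with 2. Serpini1 and Serpini2 were 287 kb apart on chromosome 3. Serping1, Serpine2, Serpine3, Serpinf1 and Serpinh1 were among the single loci, and Serpine2 and Serpinh1 had no bait.

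The Serpina3 genes, relatives of antichymotrypsin, are paralogs in tandem, and their promoters are shown because contacts among them make up much of what follows. The 120 bases before each of 8 gene starts are given in mm9, 5′ to 3′ on the strand of the gene. They stop before the annotated start, which was not checked against RNA. Capitals mark CATTTCCTAAGA, the longest run of letters that 6 of these promoters share, and TATAAA, the TATA box.

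Serpina3a, chr12:105350814-105350933, plus strand: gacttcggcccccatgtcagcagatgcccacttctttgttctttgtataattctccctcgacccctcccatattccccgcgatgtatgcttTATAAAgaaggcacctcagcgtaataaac
Serpina3b, chr12:105366086-105366205, plus strand: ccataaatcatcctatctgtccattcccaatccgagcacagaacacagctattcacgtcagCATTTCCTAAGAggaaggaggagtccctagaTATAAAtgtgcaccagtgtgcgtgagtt
Serpina3c, chr12:105392081-105392200, minus strand: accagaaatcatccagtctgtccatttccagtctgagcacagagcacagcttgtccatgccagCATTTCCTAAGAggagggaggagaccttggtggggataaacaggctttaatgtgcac
Serpina3f, chr12:105452634-105452753, plus strand: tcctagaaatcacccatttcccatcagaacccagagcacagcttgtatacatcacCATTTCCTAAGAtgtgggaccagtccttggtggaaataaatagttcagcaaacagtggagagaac
Serpina3g, chr12:105474335-105474454, plus strand: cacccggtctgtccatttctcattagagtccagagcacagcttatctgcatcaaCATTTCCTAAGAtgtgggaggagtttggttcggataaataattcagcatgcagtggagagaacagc
Serpina3i, chr12:105501212-105501331, plus strand: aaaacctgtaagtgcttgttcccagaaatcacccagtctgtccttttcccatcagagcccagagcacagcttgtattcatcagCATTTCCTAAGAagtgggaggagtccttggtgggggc
Serpina3j, chr12:105552643-105552762, plus strand: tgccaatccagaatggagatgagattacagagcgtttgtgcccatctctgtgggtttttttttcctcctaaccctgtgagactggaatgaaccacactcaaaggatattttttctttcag
Serpina3n, chr12:105644819-105644938, plus strand: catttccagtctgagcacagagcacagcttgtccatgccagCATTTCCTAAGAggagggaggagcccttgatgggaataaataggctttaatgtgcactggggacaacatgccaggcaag

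The run was found by comparing these 6 promoters, so that all of them hold it follows from the search. In the 250 bases before 21418 autosomal protein-coding gene starts, on either strand, it was present in 0.0374%. Serpina3a and Serpina3j lacked it. Over 250 bases, the 15 pairs among the 6 promoters were 53 to 78.7% identical in a global alignment, and Serpina3c and Serpina3n were the closest. The 13 pairs with Serpina3a or Serpina3j were 44.1 to 47.7% identical. The TATA box was the motif met most often among those chosen for the family: on either strand it lay in 17 of the 56 Serpin windows and in 12.4% of all windows. A C/EBP sequence (TTGCGCAA) lay before Serpina5 and in 0.163%. The letters searched for HNF4 (CAAAGTCCA, in 0.406% of all windows) and for the D-box (TTATGTAA, 0.864%) were in no Serpin window, and those for HNF1 were in no window at all.

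All 545 contacts of the Serpin promoters stayed within a chromosome, as did all but 198 of the 247177 pairs of all promoters. The lists held 284, 271, 365 and 349 of them from ZT0 to ZT18. ZT12 and ZT18 were thus the higher timepoints, while the complete lists held 146262, 154775, 151529 and 151347 pairs in the same order. Per 1000 listed pairs, the Serpin promoters made up 1.94, 1.75, 2.41 and 2.31 from ZT0 to ZT18. The sample labels decided which list belongs to which timepoint, whereas the study's own overview assigns 3 of the totals otherwise. In that order the ZT12, ZT18 and ZT6 lists would stand for ZT6, ZT12 and ZT18, and the higher counts would be those of ZT6 and ZT12.

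Of the 545 contacts, 147 were listed at all 4 timepoints, 27.0% (95% Wilson interval 23.4 to 30.9%), against 32.5% of all pairs. Intervals cover counting error only, and pairs of a bait are not independent. At 1 timepoint only, 200 were listed, 36.7% (32.8 to 40.8%), against 35.2% of all pairs. Contacts listed at ZT12 and ZT18 and not at ZT0 or ZT6 numbered 48, 8.81% (6.71 to 11.5%), while such pairs were 3.5% of all. The reverse, ZT0 and ZT6 only, held for 11, 2.02% (1.13 to 3.58%), against 3.08% of all. This pairing of timepoints was chosen after the values were seen.

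The contacts spanned a median of 144 kb between fragment midpoints (95% interval of the median 132 to 161 kb), against 162 kb for all pairs. The promoters of cytochrome P450 families Cyp1 to Cyp4, which also lie in tandem clusters, had 435 pairs on 41 fragments, a median of 126 kb (106 to 149 kb) and 29.0% listed at all 4 timepoints (24.9 to 33.4%). Counting each contact from its Serpin end, 47.3% of 592 other ends lay outside genes, 22.8% on a fragment with an exon, 5.41% in introns and 24.5% on another bait. For all promoters these shares were 26.5, 25.7, 21.1 and 26.7%. Intronic ends were thus rarer and ends outside genes more frequent than among all promoters, and the Cyp promoters, with 6.74 and 43.9%, lay near the Serpin values.

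The number of contacts ranged from 1 to 76 per fragment, with a median of 10, against 9 for all baits. At least 50 contacts, a number that 5.88% of all baits had, were found for 5 fragments, Serpina3n (76), Serpina3b (60), Serpina12 (54), Serpina5/Serpina3a (54) and Serpina3i (54). Next came Serpinf1 (44), Serping1 (35), Serpina3j (33), Serpina11 (23), Serpina9 (20), Serpina3f (18), Serpinb6a (17), Serpina3c (14), Serpina1e (12) and Serpina6 (11). Serpina3g and Serpinb6b had 10 each, Serpini1 8, Serpina1f 7 and Serpine3 6. Serpinb1a, Serpinb1b, Serpinb9 and Serpini2 had 4 each. The remaining 7 had 1 or 2, among them Serpinb5, Serpinb6e and Serpinb9b with 2 and Serpina10, Serpinb6d and Serpinb11 with 1. Clade A fragments therefore took most of the contacts, 404 of the 545 pairs.

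**Figure D1:**
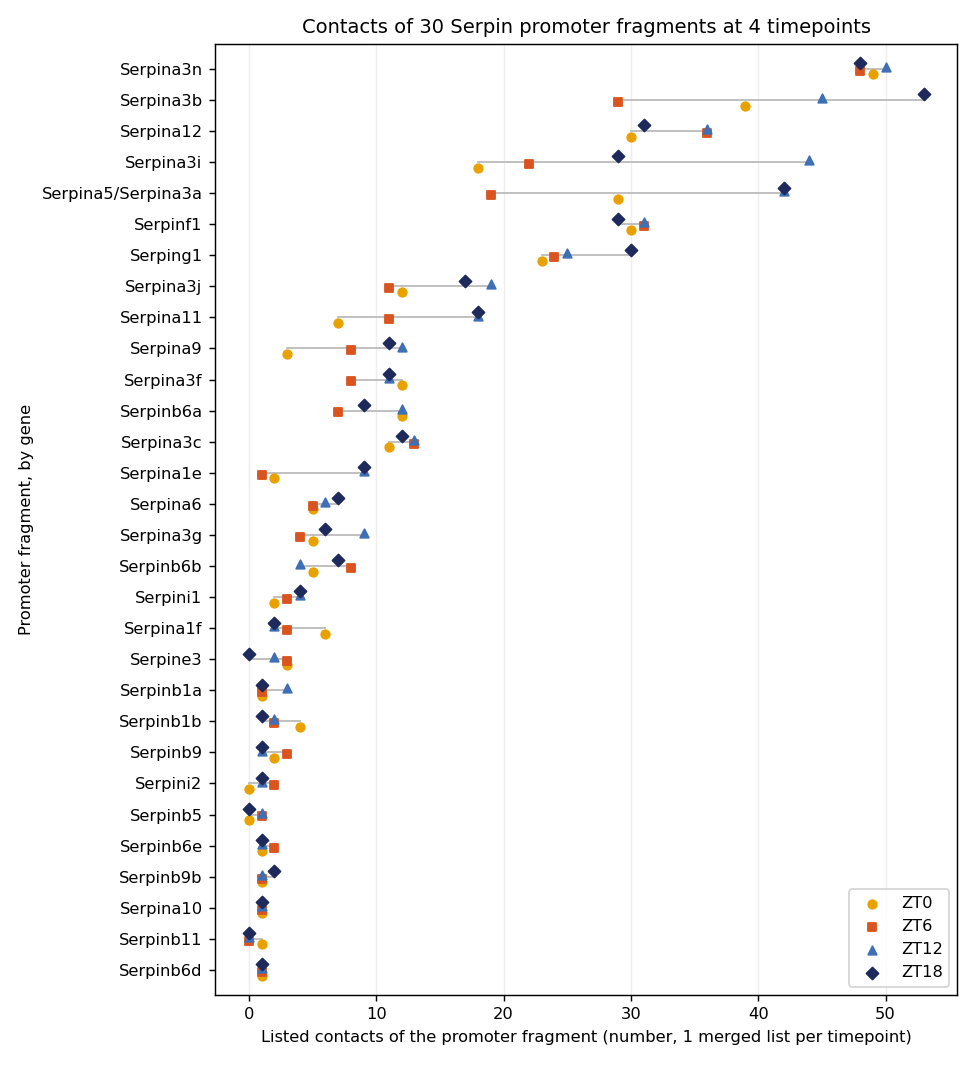
Listed contacts (x axis, number) of 30 Serpin promoter fragments (y axis, by gene) at ZT0, ZT6, ZT12 and ZT18, 1 merged list per timepoint and no error bars. Serpina3n keeps 48 to 50 contacts at every timepoint, while Serpina3b, Serpina3i and Serpina5/Serpina3a have more at ZT12 and ZT18 than at ZT0 and ZT6.

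The higher counts at ZT12 and ZT18 lay in the chromosome 12 cluster. Its fragments had 202, 186, 278 and 264 contacts from ZT0 to ZT18, so that the 542 listings at ZT12 and ZT18 were 1.40 times the 388 at ZT0 and ZT6. The Serpin fragments outside it had 82, 85, 87 and 85 contacts, a ratio of 1.03. Of the 17 Serpin fragments with at least 10 contacts, 10 had more at both ZT12 and ZT18 than at either of the other timepoints and none had fewer, against 16.9% and 13.9% of the 8819 baits of that size. Of the 10, 9 were on chromosome 12, where they share many of their other ends, and the last was Serping1. In 2, Serpina11 and Serpina1e, both counts were at least 1.5 times both others, against 1.97% of baits. Left out in turn, no fragment moved the cluster's ratio below 1.33 or above 1.5. In the other order of the lists the ratio would be 0.938, and 1 of the 17 fragments would have more at both and 2 fewer.

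Serpina3n, an acute phase inhibitor of granzyme B and cathepsin G, had the most contacts and hardly varied in number, with 49, 48, 50 and 48 from ZT0 to ZT18. Only 24 of its 76 contacts were nevertheless listed at every timepoint (31.6%), and 22 were listed at 1. Its fragment lies at the far end of the cluster, and 75 of the 76 contacts ran back toward Serpina10, with a median span of 327 kb. Its highest score, 23.37 at ZT18, was with a fragment 49.5 kb away that holds an exon of the pseudogene Serpina3l-ps and scored 17.38, 15.33 and 22.15 at the earlier timepoints.

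Serpina3b had 39, 29, 45 and 53 contacts from ZT0 to ZT18, and 57 of its 60 pointed toward Serpina3n. Serpina3i had 18, 22, 44 and 29, and 22 of its 54 were listed at a single timepoint. The fragment of Serpina5, the protein C inhibitor, and Serpina3a had 29, 19, 42 and 42. In each of these 3 both later counts were above both earlier ones. Serpina3j had 12, 11, 19 and 17. Part of its fragment of 8592 bp is a repeat, with 9039 near-identical matches of at least 1000 bp elsewhere in the genome, and the part of this in its counts was not tested.

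Serpina3c stood apart. It had few contacts, 11, 13, 13 and 12 from ZT0 to ZT18, but 10 of its 14 were listed at every timepoint (71.4%, 45.4 to 88.3%). Its top score of 59.45 was the highest of the family. Of these 14, 13 were with other baits (92.9%). The same held for 9 of 10 contacts of Serpina3g, which had 5, 4, 9 and 6, and for 9 of 18 of Serpina3f, which had 12, 8, 11 and 11. In the 8 fragments of the cluster with at least 20 contacts, 14.5 to 25% of contacts were with baits.

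Serpina12, or vaspin, an insulin-sensitizing adipokine, had 30, 36, 36 and 31 contacts from ZT0 to ZT18. Serpina11 had 7, 11, 18 and 18, and Serpina9, expressed in germinal centre B cells, had 3, 8, 12 and 11. Serpina1e, a paralog of alpha-1-antitrypsin, the plasma inhibitor of neutrophil elastase, had 2, 1, 9 and 9. Of its 12 contacts 5 were listed at ZT12 and ZT18 only and none at all 4 timepoints. A stretch of 1074 bp of its fragment is 95.7% identical to another place in the genome, within 1 Mb of it. The part of this copy in these counts was not tested.

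The fragments at the Serpina10 end of the cluster had few contacts and no common order. Serpina1f had 6, 3, 2 and 2 contacts from ZT0 to ZT18, lower at ZT12 and ZT18, but only 7 in all. Serpina6, corticosteroid-binding globulin, had 5, 5, 6 and 7, again more at ZT12 and ZT18. Serpina10 is the protein Z-dependent inhibitor of activated clotting factor X. It kept its 1 contact, with Serpina6, at every timepoint (scores of 5.86, 6.21, 8.30 and 6.13 over 24.5 kb). These 3 fragments had 17 contacts, and none was with any of the 12 Serpin fragments from Serpina1e onward. The bait of Gm46, contacted by Serpina1f and Serpina6, was also contacted by Serpina3c, at a score of 5.01 at ZT12 alone. Between the parts lie Serpina1a, Serpina1b, Serpina1c and Serpina1d, whose starts are on no bait.

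Promoters of the cluster were often in contact with each other. Of the 545 contacts, 47 joined Serpin promoters (8.62%), 43 of them on chromosome 12 and 4 on chromosome 13. The 15 fragments of the chromosome 12 cluster could form 105 pairs, of which 43 were listed (41.0%). Between 20 and 500 kb, where 23.1% of all possible pairs of baits were listed, 42 of 87 were (48.3%), and among Cyp1 to Cyp4 promoters 22 of 63 (34.9%). Within this range the pairs were not matched for distance.

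Within the Serpina3 group of 8 fragments, 26 of 28 possible pairs were listed, and 19 at every timepoint. The exceptions were Serpina3f with Serpina3g, 19.8 kb apart, and Serpina3j with Serpina3n, 92.1 kb apart. The 26 were seen 22, 22, 25 and 24 times from ZT0 to ZT18. In 15 of the 19 constant pairs both the ZT12 and the ZT18 score were above both others, and in none below, where over all constant pairs of the lists these shares were 20.2% and 16.1%. In the other order of the lists it would be 1 of the 19 above and 1 below.

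The strongest of these contacts joined Serpina3b and Serpina3c, 26.9 kb apart, with scores of 40.86, 43.43, 53.36 and 59.45 from ZT0 to ZT18. Serpina3c and Serpina3i, 112 kb apart, scored 20.61, 26.31, 27.70 and 27.40. Serpina3c with Serpina5/Serpina3a, 46.0 kb away, scored 13.97, 12.54, 15.79 and 26.48. Serpina3c thus took part in the 3 strongest Serpin pairs of the cluster, and its score with each was lowest at ZT0 or ZT6.

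Serpina3b with Serpina3i scored 11.71, 11.33, 20.89 and 15.29 from ZT0 to ZT18. With Serpina3j it scored 12.48, 8.82, 17.27 and 14.91, and with Serpina3f 10.55, 8.13, 14.06 and 14.56. These 3 pairs were again higher at ZT12 and ZT18. Serpina3c with Serpina3j (10.68, 12.73, 17.54 and 20.26) and Serpina3b with Serpina3g (7, 8.54, 12.58 and 13.75) followed the same order. Serpina3c with Serpina3f did not, with 8.18, 8.92, 6.19 and 9.39.

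The other constant Serpina3 pairs had top scores between 6.40, for Serpina3f with Serpina3n, and 17.50, for Serpina3c with Serpina3n. They joined Serpina5/Serpina3a with Serpina3i, Serpina3j and Serpina3n, Serpina3c with Serpina3g, Serpina3b with Serpina3n, Serpina3f with Serpina3i, and Serpina3i with Serpina3g and Serpina3j. The 7 pairs missing from some lists were Serpina5/Serpina3a with Serpina3b, Serpina3f and Serpina3g, Serpina3j with Serpina3f and Serpina3g, and Serpina3n with Serpina3g and Serpina3i. Their top scores ran from 5.07, for Serpina3g with Serpina3j, listed at ZT12 alone, to 10.69, for Serpina5/Serpina3a with Serpina3f, and so overlapped those of the constant pairs. Serpina5/Serpina3a with Serpina3f scored 6.07, 10.62 and 10.69 and was missing at ZT6, and with Serpina3g it scored 8.43 and 8.12 at ZT12 and ZT18 alone. Beyond the Serpina3 genes, Serpina11 and Serpina12 were in contact at every timepoint (10.49, 11.52, 17.62 and 12.08 over 62.8 kb). So were Serpina12 and Serpina3n, 361 kb apart, at 8.14, 11.99, 14.80 and 9.07, and Serpina12 with Serpina3c, at 10.22, 13.75, 14.02 and 13.62. Serpina11 with Serpina3n, also constant, went the other way, with 8.82, 7.72, 7.16 and 6.67. No other constant Serpin pair of the cluster had both later scores below both earlier ones. Absent from some lists were the pairs of Serpina9 with Serpina3c, Serpina3g, Serpina3i and Serpina3n, of Serpina12 with Serpina3f, Serpina3g, Serpina3i and Serpina3j, of Serpina11 with Serpina3b and Serpina5/Serpina3a, of Serpina1e with Serpina3n and of Serpina6 with Serpina1f.

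The promoter sequences printed above can be set beside these scores. Serpina3c and Serpina3n, the most identical at 78.7%, had a top score of 17.50. Serpina3f and Serpina3g, at 73.5%, were not listed as a pair, and Serpina3b and Serpina3c, at 67.0%, had the top score of all. The part of sequence likeness in the scores was not tested. The fragment of Serpina5/Serpina3a was in contact with each of the other 7 Serpina3 fragments. The shared run was absent from the bases searched before the Serpina3a start, but most of this fragment was not searched. The part of the run in the contacts was not tested.

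**Figure D2:**
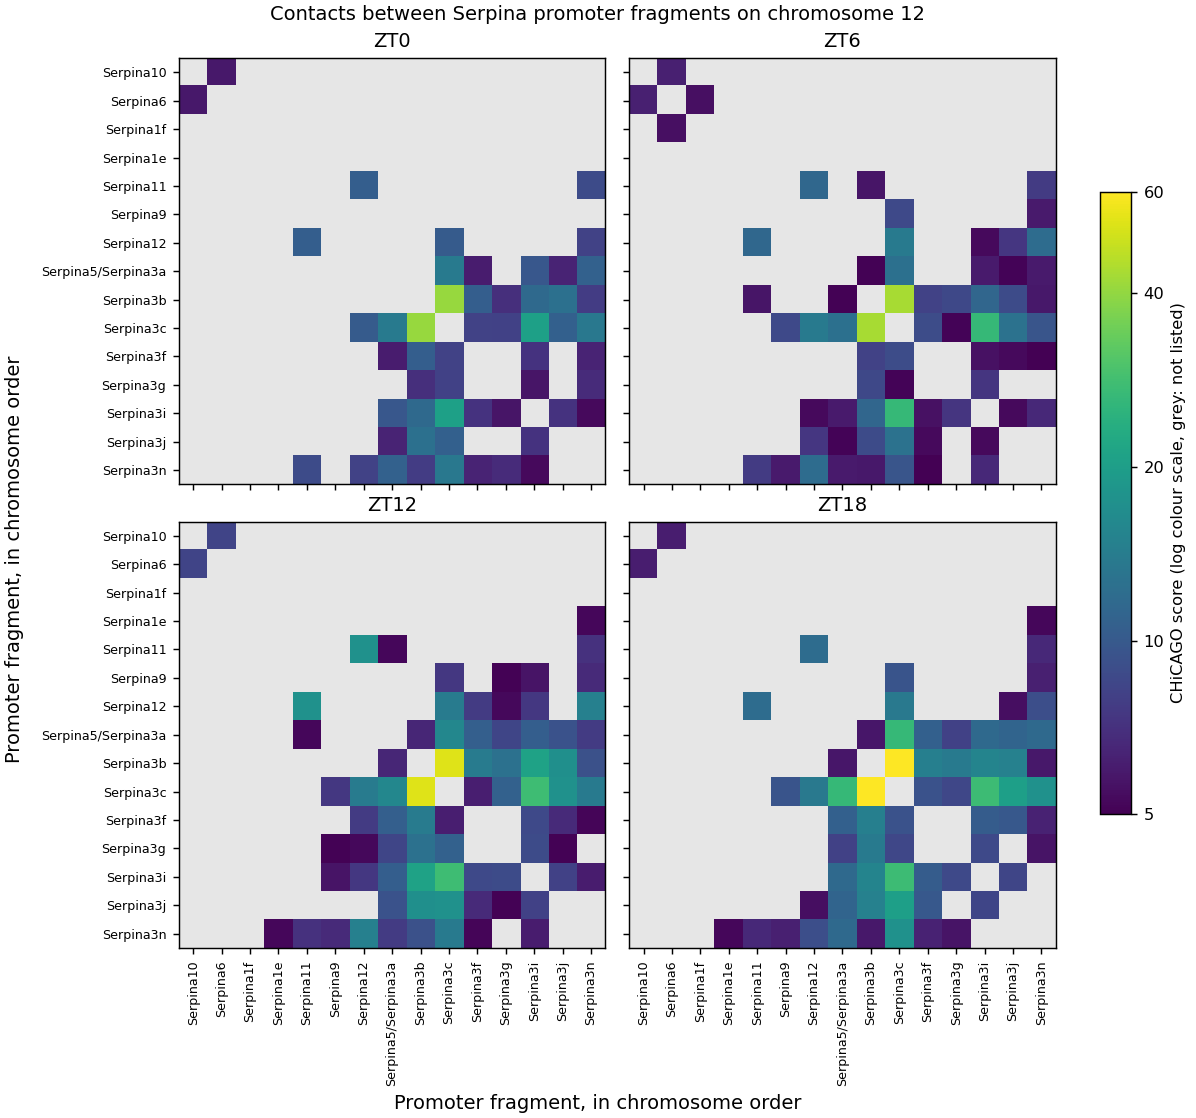
CHiCAGO scores of contacts between the 15 Serpina promoter fragments of chromosome 12, 1 panel per timepoint, both axes in chromosome order, with a log colour scale from 5 to 60 and grey for pairs that are not listed. The Serpina3 fragments form a nearly filled block at every timepoint, with Serpina3b and Serpina3c brightest, and Serpina10, Serpina6 and Serpina1f share no contact with it.

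Many other ends were shared. The Serpin promoters contacted 278 different fragments, of which 110 were contacted by at least 2 Serpin fragments and 30 by at least 5, all 30 on chromosome 12. That cluster holds 15 of the 31 Serpin fragments, and the other clusters have 8 or fewer. Sharing was not counted for other baits, so these numbers have no background. Among the 30, 9 were Serpin baits and 20 were on no bait. The remaining fragment was the most shared of all: a bait of 6316 bp at chr12:105656824-105663139, just past Serpina3n, on which the annotation places a small nucleolar RNA gene, SNORA17, and no other gene start.

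The SNORA17 fragment was contacted by 12 Serpin fragments, 9 of them at every timepoint. With Serpina3c it scored 27.29, 47.00, 33.94 and 27.71 from ZT0 to ZT18, highest at ZT6. So was the score of Serpina3c with a bait 320 kb away that holds the starts of Gsc and Gm10000 (16.50, 21.14, 12.93 and 13.36), whereas its 9 pairs with Serpin promoters were highest at ZT12 or ZT18. With Serpina3f it scored 25.64, 24.37, 26.15 and 25.09, nearly the same throughout, and with Serpina5/Serpina3a 23.79, 24.16, 20.47 and 25.85. It was also the strongest contact of Serpina11, 438 kb away (14.74, 18.78, 21.78 and 22.24), Serpina12 (11.82, 18.34, 20.03 and 13.07) and Serpina9 (11.08, 12.09, 9.73 and 10.53). The span between Serpina11 and SNORA17 thus holds the bulk of the shared ends. Of 447 contacts counted from the fragments of the cluster, 392 (87.7%) ended between the first and the last Serpina start, 47 beyond Serpina3n and 8 beyond Serpina10.

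Next in number came the Serpina3n fragment, contacted by 10, and the fragments of Serpina3c and Serpina3i, contacted by 9 each. The exon of Serpina3l-ps at chr12:105592747-105600711 was contacted by 8. The start of Serpina3k, which is on no bait, lay on a fragment at chr12:105574845-105577846 that 7 Serpin fragments contacted. Serpina5/Serpina3a scored 17.72, 15.15, 29.87 and 26.12 from ZT0 to ZT18 with it, over 230 kb, its highest score at any fragment. Serpina12 scored 13.57, 14.13, 14.71 and 14.08 with it and so hardly varied.

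**Figure D3:**
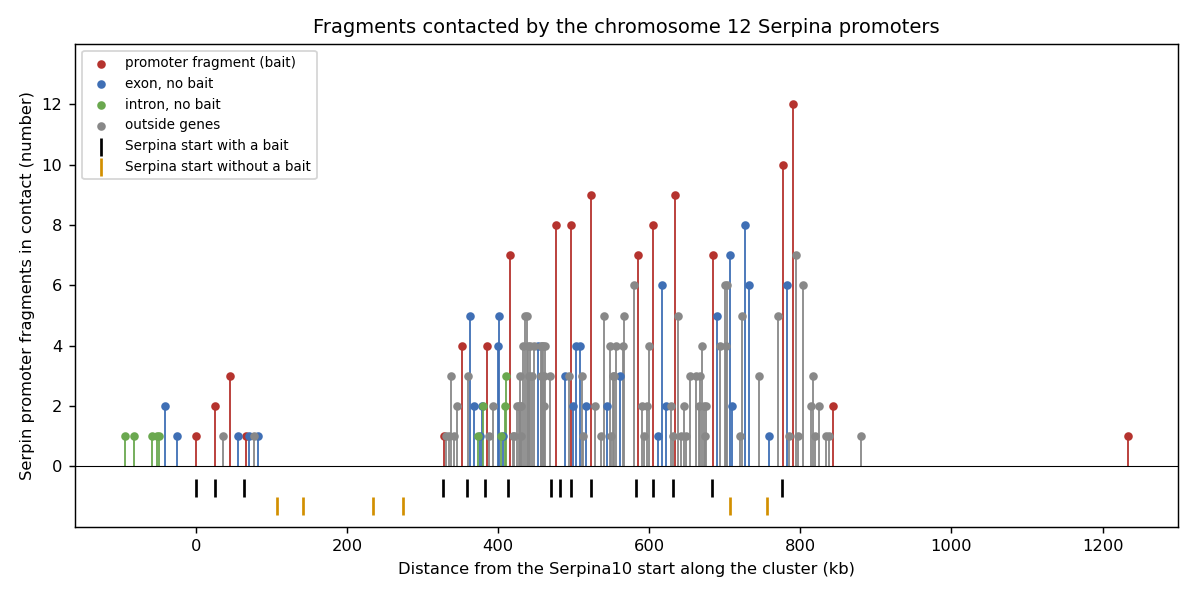
Number of Serpin promoter fragments (y axis) in contact with each chromosome 12 fragment, by its distance from the Serpina10 start (x axis, kb) and coloured by what the annotation places on it, with ticks below for Serpina starts with and without a bait. Ends shared by at least 5 fragments lie from near Serpina11 to just beyond Serpina3n, where the SNORA17 fragment is contacted by 12. The stretch of Serpina1a to Serpina1d, whose starts are on no bait, holds no listed end. How well reads can be placed there was not analysed.

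Scores of the contacts listed at all 4 timepoints were, like the counts, higher at ZT12 and ZT18 than at ZT0 and ZT6 for the Serpina3 fragments. For the 73 of them with an end on a Serpina3 fragment, the median score was 8.07, 7.71, 9.75 and 10.28 from ZT0 to ZT18. Over all 80235 such pairs the medians were 8.75, 8.95, 8.98 and 8.98, so the lists as a whole did not shift in this way. In 35 of the 73 (47.9%) both the ZT12 and ZT18 score were above both others, and in 9 (12.3%) below, against 20.2% and 16.1% of all pairs. In the other order of the lists these shares would be 9.59 and 11%, against 16.6 and 13.9% of all pairs. The 24 remaining constant pairs of the cluster had medians of 8.45, 8.94, 8.48 and 7.95, with 4 (16.7%) above and 3 (12.5%) below. The 50 outside it had 7.85, 8.49, 8.27 and 9.52, highest at ZT18, and of these 15 (30%) were above and 3 (6%) below. Pairs outside the cluster thus leaned the same way as the Serpina3 set, by less, and the difference between the sets was not tested.

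**Figure D4:**
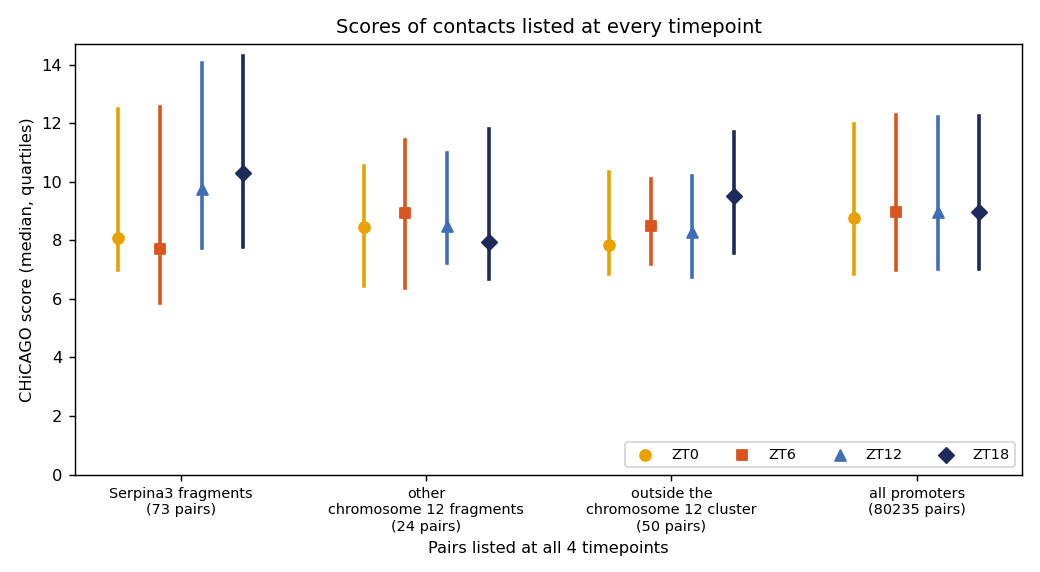
Median (symbol) and quartiles (line) of CHiCAGO scores (y axis) at each timepoint for pairs listed at all 4, in 4 sets (x axis) that hold 73, 24, 50 and 80235 pairs. Medians of the Serpina3 set are higher at ZT12 and ZT18 (9.75 and 10.28) than at ZT0 and ZT6 (8.07 and 7.71), while those of all promoters lie between 8.75 and 8.98, and the quartiles of all timepoints overlap.

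Contacts that the cluster showed at ZT12 and ZT18 only were 44 of its 404 (10.9%, 8.21 to 14.3%), and 7 were listed at ZT0 and ZT6 only (1.73%, 0.842 to 3.53%). Serpina3b and Serpina5/Serpina3a had 8 of the 44 each, Serpina3i and Serpina11 7 each, and Serpina1e 5. Their median span was 115 kb, against 188 kb for the constant ones, while over all promoters such pairs spanned 139 kb and constant pairs 123 kb. The median of their top scores was 6.29 against 11.41, and 6.47 against 10.88 over all promoters. Lower scores follow from the choice, as these pairs were under 5 in the other lists.

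Among single loci, Serpinf1 and Serping1 had the most contacts. Serpinf1 encodes pigment epithelium-derived factor, an anti-angiogenic protein that inhibits no protease, and had 30, 31, 31 and 29 contacts from ZT0 to ZT18, with 22 of 44 at every timepoint (50%, 35.8 to 64.2%). Its highest score was with an intron of its neighbour Serpinf2, 11.3 kb away, at 18.41, 15.07, 17.86 and 17.74. An exon of Prpf8, a splicing factor gene 72.9 kb away, scored 10.35, 13.02, 11.29 and 15.69. Serping1, the inhibitor of the first component of complement, had 23, 24, 25 and 30 contacts, with 16 of 35 at every timepoint (45.7%, 30.5 to 61.8%). It was in contact with the promoters of Mir130a (14.47, 11.25, 14.58 and 17.46 over 31 kb), Ypel4 and Clp1, all 3 at every timepoint. Its contacts were short, with a median of 37.7 kb.

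The clade B cluster on chromosome 13 had 40 contacts, with 23, 21, 22 and 21 from ZT0 to ZT18, and so no higher counts at ZT12 and ZT18. Of these, 11 were listed at every timepoint (27.5%, 16.1 to 42.8%). Serpinb6a, an inhibitor of cathepsin G whose fragment also holds the start of the kinase gene Ripk1, had 12, 7, 12 and 9 contacts. Its highest score, 12.16 at ZT0, was with a fragment outside genes 146 kb away. It also contacted the promoters of Psmg4, 161 kb away (9.51, 12.08, 9.90 and 11.92), and Nqo2 (7.26, 7.79, 8.34 and 10.36). The 2 genes of this fragment cannot be told apart.

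Serpinb6b had 5, 8, 4 and 7 contacts from ZT0 to ZT18, and 3 of its 10 were with other Serpin promoters. With Serpinb1b, 121 kb away, it scored 17.27, 23.03, 6.22 and 12.28, lower at ZT12 and ZT18, the opposite order to the Serpina3 pairs. With Serpinb9b, 64.8 kb away, it scored 10.68, 9.37, 7.87 and 14.28, and with Serpinb1a 5.62 and 5.68 at ZT0 and ZT6 alone. Serpinb9, which protects cytotoxic cells from their own granzyme B, had 2, 3, 1 and 1 contacts, and with Serpinb1b it scored 9.96, 5.52 and 5.18 and was not listed at ZT18. Of 28 possible pairs among the 8 fragments, these 4 were listed (14.3%). Between 20 and 500 kb they were 4 of 13 (30.8%), against 23.1% of all possible pairs of baits, again not matched for distance. Serpinb6d and Serpinb6e had contacts within their own genes only. On chromosome 1, Serpinb5, or maspin, and Serpinb11 had 3 contacts in all, each at a single timepoint.

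The remaining promoters had few contacts. Serpini1 encodes neuroserpin, an inhibitor of tissue plasminogen activator, and had 2, 3, 4 and 4 contacts from ZT0 to ZT18, among them the Golim4 promoter, 398 kb away, at 5.25 at ZT12 and 10.90 at ZT18. Serpini2 had 0, 2, 1 and 1, none of them at more than 1 timepoint. Serpine3 had 3, 3, 2 and 0, and 2 of its 6 contacts were with the defensin promoters Defb47 and Defb48. Such numbers are too small to be read by time.

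For 24 of the 56 genes the start was on no bait, and no other bait lay within 5 kb. Besides Serpine2 and Serpinh1 these were Serpina1a to Serpina1d, Serpina3k, Serpina3m, 9 genes of the chromosome 1 cluster and 7 of the chromosome 13 cluster. The start of Serpinh1, a chaperone of collagen, lay on a fragment contacted by the promoters of Neu3 (9.95 at ZT0, 5.74 at ZT12 and 12.12 at ZT18) and Mir326 (9.31 at ZT18). Serpinh1 and Serpina3k were the only ones of the 24 whose start was on a listed fragment.

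Proteases and partners of serpins were followed for comparison. All 25 genes of the list had a bait, with a median of 12 contacts, and none of them was in contact with a Serpin promoter. Their positions made this likely beforehand. Each lay on a chromosome without a Serpin fragment or farther from any than the longest Serpin contact, 997 kb. Of the 16 with at least 10 contacts, 6 had more at both ZT12 and ZT18 and 2 had fewer, beside 16.9% and 13.9% of all baits. Plau, the plasminogen activator urokinase, had 6, 5, 9 and 7 contacts, Klkb1, the plasma kallikrein that Serping1 inhibits, had 9, 11, 18 and 9, and Hpn, a hepatocyte surface protease, had 39, 35, 42 and 36.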

How the data were processed

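P-CHi-C libraries of mouse liver at 4 timepoints were mapped to mm9 by the authors, who merged the pools and called contacts with CHiCAGO. The deposited lists used here hold 1 CHiCAGO score for each fragment pair at each timepoint, with a minimum score of 5, and values per pool were not analysed here. Read depth was not analysed here. Weak pairs close to the minimum enter or leave a list with small changes in reads, so the numbers depend on depth.

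Lists were read as unordered pairs in python 3.11.15 with numpy 2.4.6 and pandas 2.3.3. A contact was counted for every bait on it, and a bait is a fragment named as bait in any list. Gene starts came from GENCODE vM1, and clusters chain starts with gaps under 500 kb. Sequences were read from the mm9 genome with pysam 0.24.0 and aligned with biopython 1.88. Near-identical copies are blastn 2.17.0 matches of at least 1000 bp and 95% identity. Wilson intervals came from statsmodels 0.14.6. Counting was tested on simulated lists.

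Values at each timepoint are given for the 12 fragments with the most contacts, the Serpina1 and Serpina3 genes and Serpin genes on the study's circadian list. They are also given for many pairs of Serpin promoters, and other pairs are only named. Contacted genes are those at the highest score. Further genes were named after their values were seen. Members, lists and comparisons were chosen with earlier results of these data known. The values of 1 fragment, 1 motif and the promoter sequences of 2 genes are not reported here.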

Additional observations from a re-analysis of the deposited data

How the results depend on the processing

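No paired analysis was possible because the lists used here merge the pools of a timepoint, and for the same reason no pool could be left out. Of 62 values under other settings, 50 stayed within bounds, which were 1.5 times the value for numbers of contacts and the 95% interval for shares and the median distance. The bound for numbers is wide: in the study's order of the lists ZT6 went from 271 to 365 contacts and stayed within it. The 50 therefore do not show that the order of the timepoints was kept. With a score of at least 7 the contacts numbered 138, 127, 165 and 175 at ZT0, ZT6, ZT12 and ZT18 and 12.4% joined Serpin promoters. With a score of at least 10 they numbered 55, 52, 62 and 76, and 18.3% did so. Without Serpina3n the median distance was 129 kb. Accepting another end within 10 kb raised the share listed at all 4 timepoints to 60%. Taking the nearest bait within 5 kb added no gene, so its values, counted among the 50, could not differ.

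The ratio of chromosome 12 listings at ZT12 and ZT18 to those at ZT0 and ZT6 was tried under settings chosen after the data were seen. It was 1.37 at a score of at least 7, 1.26 at 10, 1.44 with lists of the same length, 1.35 without fragments with near-identical copies, 1.39 without Serpina3 fragments and 1.41 with these alone. With the timepoints in the order of the study's summary it fell to 0.938 and so reversed, since other lists are then compared. The share of constant pairs with both later scores above both others then moved from 47.9 to 9.59% for the Serpina3 set and from 78.9 to 5.26% among Serpina3 fragments. Scores near 5 limit every count here.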
